A study of Caenorhabditis elegans with 20 samples.

Results

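H3K27me3 was compared between a C. elegans strain that carries an extra piece of chromosome X attached to an autosome (duplication) and the wild type. The members are 4 of the 20 libraries of the series: the H3K27me3 immunoprecipitation (IP) and its input from each of these strains, chosen by strain and antibody, with 1 library per group. The wild type is N2. The duplication strain is CGC42, which by its label has the duplication mnDp10 (X;I), written with umnls31 in brackets, and the e151 allele of unc-3 on X. The label gives neither the breakpoint nor the number of duplication copies per animal, and the purpose of this strain is not stated in the sources used here. Neither label lists a change in H3.3, so both strains lack the K27M oncohistone that the rest of the study is about. All animals were adults grown at 20 °C, and chromatin came from total nuclei that the submitters describe as rich in germ cell nuclei. Whole-animal nuclei from several cell types were thus measured together, and more nuclei with the mark and more mark per nucleus cannot be told apart. The antibody recognizes di- and trimethylated H3K27. As a yardstick for how much 2 strains without K27M differ, the H3-like strain was used, whose HIS-72 carries the substitutions A87S, A88V, I89A and G90M (allele uge67), also with 1 library each of IP and input.

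H3K27me3 is laid down by Polycomb repressive complex 2, whose catalytic subunit in worms is MES-2. In the C. elegans germ line this complex helps to keep X silent, so the mark covers X broadly and is patchy on the autosomes, where actively transcribed germline genes carry H3K36me3 in its place. Duplications such as mnDp10 are free or attached chromosome fragments used to keep mutations balanced, and unc-3 encodes a COE-family transcription factor of motor neurons. The comparison asked whether the extra X DNA, now joined to an autosome, carried the mark as X does, and whether the rest of X and the autosomes differed from the wild type.

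Each 100 bp value of the tracks is scaled IP reads minus scaled input reads, and whole reads could be solved from it. By the study's methods, the reads of a bin are the maximum number present in it. At the median 100 bp bin this was 85 IP and 45 input reads in duplication and 322 and 301 in the wild type. In H3-like it was 72 and 105, so the input of duplication limits the precision most. Reads were averaged over 10 kb bins, and the level of the mark was log2 of IP over input with 1 scaled read added to each. Of 10024 full bins, 9966 had a mean of at least 5 input reads per 100 bp in both strains, of which 8199 lay on the autosomes and 1767 on X. Neighbouring bins share reads. Each group had 1 deposited track, which pools an unstated number of replicates per the study's methods, although the wild-type IP is titled rep1. The differences below are therefore descriptions of these libraries, with no p-value and no counting interval, set beside the difference between H3-like and wild type.

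The right part of X was higher in the input of duplication. Input is chromatin digested in the same way but not precipitated, and its ratio also varied where no copy change is labelled, from 0.729 to 1.16 over the 1 Mb windows of the autosomes. The search for a step on X always returns 1 split, and other numbers of steps were not compared. Along X the ratio of scaled input, duplication over wild type, stepped at base 12130001 of the files' build (WBcel215), the split with the smallest residual. To the left of it the median ratio over 10 kb bins was 0.858, and to the right it was 1.29, a factor of 1.5. The right part spanned 5.59 Mb, or 31.5% of X, up to the last listed base, 17718800. For reference, 3 copies against 2 give a ratio of 1.5, and 4 against 2 give 2. The step found in 1 kb bins of input and in 10 kb bins of IP fell on the same base, and the one in 1 kb bins of IP at 12128001.

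The IP reads stepped up by nearly the same factor. Their ratio, duplication over wild type, had a median of 0.832 left of the step and 1.22 right of it, a factor of 1.47. In 100 kb windows the IP ratio ran from 0.792 to 0.995 over the 121 windows on the left and from 1.16 to 1.28 over the 56 on the right. The input ratio ran from 0.718 to 1.09 on the left and from 1.14 to 1.41 on the right. On neither measure did windows of the left and the right part overlap, although the split was placed by the same input ratios.

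**Figure D1:**
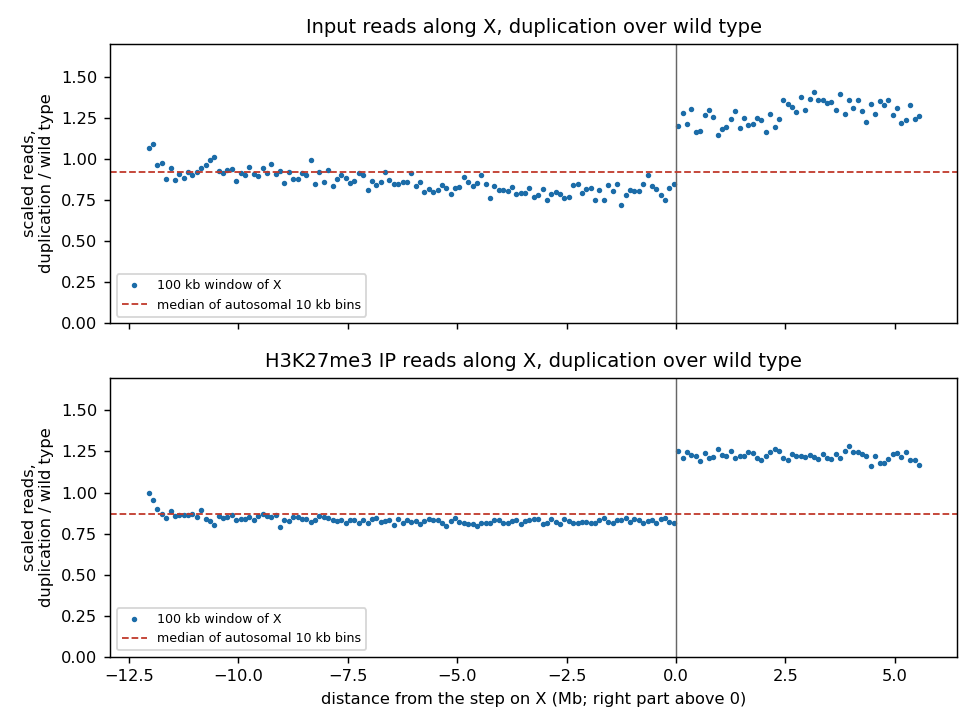
Scaled input reads (top) and H3K27me3 IP reads (bottom) of duplication divided by those of the wild type, in 100 kb windows along X (points), against the distance from the step in Mb; the dashed line is the median ratio of autosomal 10 kb bins (0.923 for input, 0.871 for IP). Both ratios jump at the step, from medians of 0.858 and 0.832 on the left to 1.29 and 1.22 on the right, and the IP ratio is the flatter of the pair.

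Close to the step the factors were similar. In the 500 kb on either side (50 bins each), the input ratio went from 0.808 (quartiles 0.753 and 0.858) to 1.23 (quartiles 1.17 and 1.35), a factor of 1.52. The IP ratio went from 0.826 (quartiles 0.810 and 0.851) to 1.23 (quartiles 1.19 and 1.26), a factor of 1.49. The input of H3-like showed no such step, with 0.942 on the left and 0.936 on the right. The library labelled duplication H3.3K27M, which by its label carries the same duplication together with K27M, had input ratios of 0.902 and 0.922 on the same flanks. That library thus lacked the step its label implies, and it was used for nothing else here.

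Relative to the autosomes, the right part of X held 1.39 times the wild-type input and 1.40 times the wild-type IP. The left part held 0.93 times the input and 0.96 times the IP of the wild type on the same scale. The input of the right part varied between its 1 Mb windows from 1.22 to 1.34 times the wild type before this scaling, whereas IP stayed between 1.21 and 1.23.

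Once IP was divided by input, so that the number of copies drops out, the right part of X carried H3K27me3 at close to the level of the left part. Reads of the extra piece and of the native right part fall on the same bases, so this level averages over both. The level of the extra piece alone cannot be read from these data. The median log2 IP over input in the right part was 0.42 for duplication, 0.50 for wild type and 0.37 for H3-like. In the left part these levels were 0.43, 0.50 and 0.37, and on the autosomes 0.13, 0.33 and 0.14. X thus stood above the autosomes in all 3 libraries, and in duplication both parts of X did.

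Bin by bin, the difference between duplication and wild type was small on X. The median difference was -0.07 in the right part (a fold of 0.956, quartiles -0.18 and 0.04) and -0.03 in the left part (a fold of 0.976, quartiles -0.16 and 0.09). For H3-like minus wild type the median was -0.14 in both parts. On this scale both differences for duplication were smaller in size than those for H3-like, and relative to the autosomes, as given next, the order was the reverse. The right part was lower than the left by 0.03 in this measure, and on the 500 kb flanks of the step, where the medians were -0.006 and 0.03, it was lower by 0.04.

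The sign of these values depends on the reference, and also on the bin size (0.04 and 0.07 on the right and left part in 100 bp bins). The level of the autosomes differed as well: the median of the bin differences there was 0.03 (a fold of 1.02), but the median levels differed by 0.20 in the other direction, since the distribution of levels had another shape in duplication. When each track was centred on its own autosomal median, 0.20 was added to every difference, and the right part of X came to 0.13, the left part to 0.16. Relative to the median difference of the autosomes, which such a shift does not touch, the right part was at -0.10 and the left part at -0.07. The same contrasts were -0.05 and -0.04 for H3-like minus wild type, and with H3-like in place of the wild type they were -0.01 and 0.01.

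**Figure D2:**
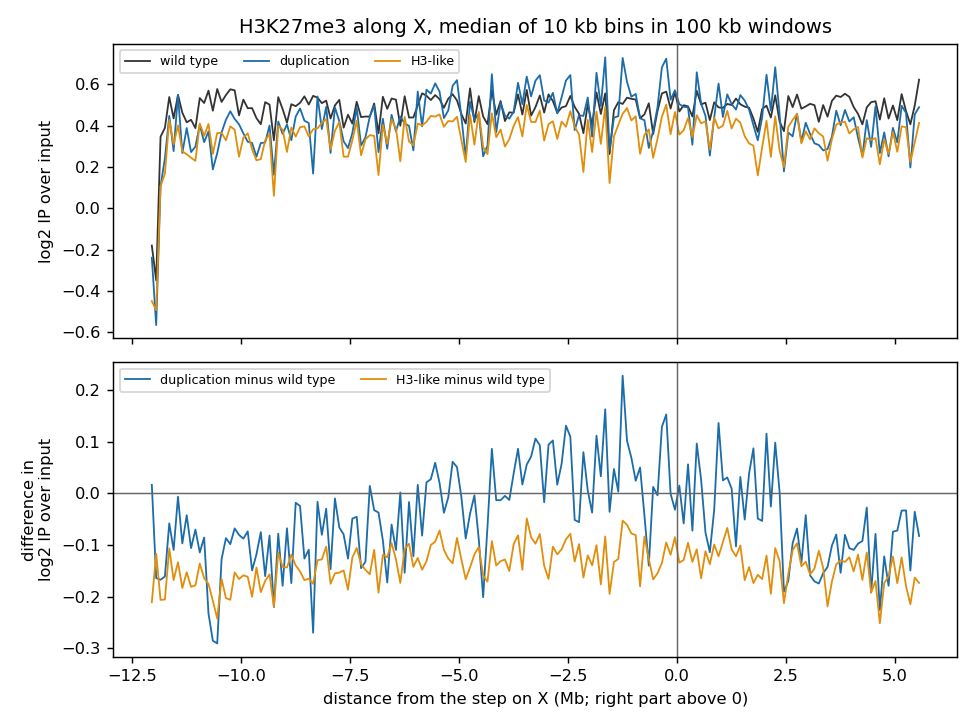
Median log2 IP over input of H3K27me3 in 100 kb windows of X (top) for wild type, duplication and H3-like, and the difference of duplication and of H3-like from the wild type (bottom), against the distance from the step in Mb. The levels run through the step without a break, and the difference of duplication bows along X, from -0.14 in the second 1 Mb window to 0.07 in the 1 Mb window that starts at 10000001.

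The difference was not even along the chromosome. In 1 Mb windows wholly left of the step it ran from -0.14 (bases 1000001 to 2000000) to 0.07 (10000001 to 11000000), and wholly right of it from -0.14 (15000001 to 16000000) to 0.02 (13000001 to 14000000). It was negative in the first 6 windows of X and in the 4 windows from 14000001 to the right end, and above 0 in the 6 windows before the one that holds the step. Of the 100 kb windows, 39 of 121 on the left and 14 of 56 on the right were above 0, against 0 of 121 and 0 of 56 for H3-like minus wild type. The input ratio moved with this bow. It was 0.945 in the second 1 Mb window and 0.785 in the one that starts at 10000001, while the IP ratios there were 0.854 and 0.829. Across 10 kb bins the difference had a Pearson r of -0.85 with the log2 input ratio on the left part (1209 bins) and -0.94 on the right (558 bins). The input enters both quantities, so this is a description, and the part of the input in the difference was not tested.

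Within 500 kb of the step, the 50 kb windows scattered on both sides of it over overlapping ranges. The log2 level in duplication ranged from 0.37 to 0.80 over the 10 windows on the left and from 0.28 to 0.76 over the 10 on the right. In the wild type it ranged from 0.45 to 0.63 and from 0.36 to 0.57. The difference was above 0 in 6 of 10 windows on the left and in 3 of 10 on the right. In the windows that touch the step it was -0.02 on the left and -0.003 on the right.

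The deposited input-subtracted values weigh extra copies differently, since more DNA with the same mark gives a larger subtracted signal. The mean per 100 bp on the right part of X was 42.6 scaled reads in duplication and 41.6 in the wild type, and on the left part 30.5 and 41.0. H3-like had 24.8 and 25.1 on the right and the left. In the wild type both parts were alike, and in duplication the right part was the higher. Over all of X, the excess of the mean over that of the autosomes came to 41.0 for duplication, 40.4 for wild type and 31.8 for H3-like. By medians of 10 kb means in place of means it was 27.4 for duplication, 18.4 for wild type and 19.9 for H3-like. Split at the step, the excess of duplication was 49.3 for the right part and 37.2 for the left, where the wild type had 40.8 and 40.2. Divided by the mean scaled input of the same part, the signal of the right part was 0.303 in duplication and 0.382 in the wild type, and that of the left part 0.321 and 0.374. H3-like lay further below the wild type, with 0.247 on the right and 0.248 on the left.

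These means hid a wider spread in duplication. Over 10 kb means the quartiles of the right part were 29.7 and 59.6 in duplication and 34.9 and 49.7 in the wild type. Over 1 kb means they were 19.4 and 72.3 against 29.0 and 55.1, and over 100 bp values 6.87 and 85.0 against 21.8 and 59.6. On the left part the quartiles of 10 kb means were 20.8 and 44.1 in duplication and 34.1 and 51.0 in the wild type. An input read was worth 2.12 scaled reads in duplication and 0.364 in the wild type, and the right part held more DNA in duplication. The share of depth and copies in this spread was not tested. The spread of log2 levels on X was also wider in duplication. Its SD over bins of the right part was 0.26 for duplication, 0.14 for wild type and 0.19 for H3-like, and on the left part 0.32, 0.24 and 0.26. On the autosomes the SD was 0.94 for duplication, 0.93 for H3-like and 1.14 for wild type, the widest there. Over all bins the log2 levels of duplication and wild type correlated with r = 0.96 (Pearson) and rho = 0.82 (Spearman), across 9966 bins that share libraries and chromosomes. The scaled IP reads alone had an r of 0.98 on a log2 scale and the scaled input reads 0.73, against 0.95 for the input of H3-like and wild type.

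Few bins of X differed by more than 1.5-fold. Over the genome, 916 of 9966 bins did (9.19%), of which 815 (8.18%) were higher and 101 (1.01%) lower in duplication. Between H3-like and wild type it was 286 bins (2.87%), 280 higher (2.81%) and 6 lower (0.0602%). On the right part of X, 2 of 558 bins were higher and 3 lower, and on the left part 4 of 1209 were higher and 4 lower. These shares, 0.896% and 0.662%, lay below the 9.19% of all bins. With H3-like, 0 bins of X were past this fold. In 1 kb bins the background was higher, 25.3% of 98623 bins, and the right part of X had 344 bins that were higher and 328 lower of 5561 (12.1%), the left part 899 and 612 of 11973 (12.6%).

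The split between higher and lower bins depended on the scale. With the tracks centred on their autosomal medians, 1473 bins were higher and 8 lower, of which 5 and 1 lay on the right part of X and 24 and 0 on the left. With the input-subtracted means, and a limit at the 95th percentile of the differences between H3-like and wild type (31.1 scaled reads), 87 bins were higher and 1033 lower. The directions of the counts given next hold for the log2 scale without centring.

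Most bins that lay past the fold were autosomal. Chromosome I had 264 bins that were higher and 27 lower out of 1504. Chromosome III had 209 and 16 of 1375, IV had 165 and 8 of 1737, II had 105 and 22 of 1523, and V had 66 and 21 of 2060. Chromosome I, to which the X material is joined, had the highest share of bins higher in duplication (17.6%), but III followed closely with 15.2%. Between H3-like and wild type the same 2 autosomes had the highest shares, 4.79% on I and 5.67% on III.

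**Figure D3:**
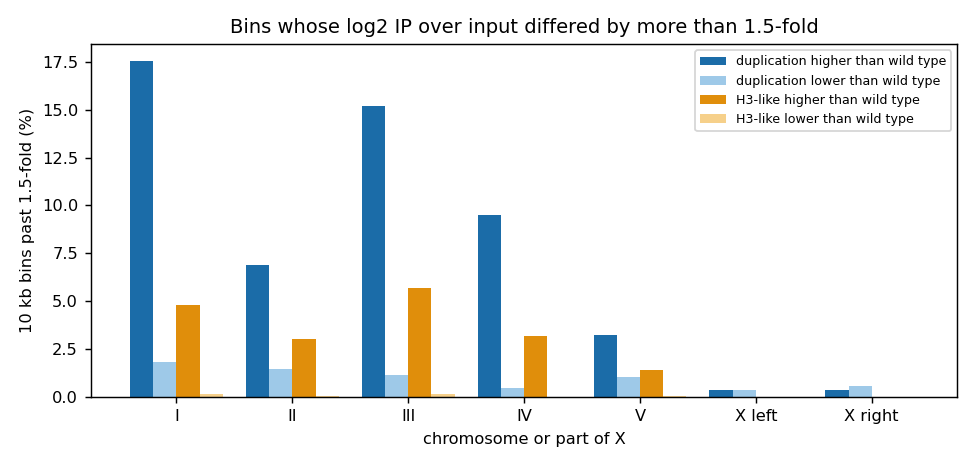
Share of 10 kb bins (percent) whose log2 IP over input was more than 1.5-fold higher or lower than in the wild type, for duplication and for H3-like, by chromosome and part of X. Chromosome I (17.6%) and III (15.2%) have the tallest bars for duplication, and both parts of X stay below 1%.

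The bins that were higher were those with the least mark to begin with. When autosomal bins were put in 5 equal classes by their level in H3-like, a track not used in the contrast, 755 of the 809 higher bins (93.3%) fell in the lowest class. They made up 46.0% of its bins. The 809 became 281 with a pseudocount of 10 scaled reads and 109 with H3-like in place of the wild type. At the median, its log2 level stood at -2.51 for wild type, -2.09 for H3-like and -1.88 for duplication, and the median difference between duplication and wild type was 0.55. The IP of duplication was 1.58 times that of the wild type there, with an input ratio of 1.07. In the third class the median difference was -0.16 and in the highest class 0.11.

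On X, where no class lies so low, the order of the classes was another. In the lowest class of the right part, the level was 0.24 in the wild type and 0.06 in duplication, a median difference of -0.20, and in the highest class it was 0.57 and 0.60, a difference of 0.05. On the left part the differences were -0.12 and 0.11. IP ratios hardly varied over these classes, from 1.22 to 1.23 on the right and from 0.828 to 0.841 on the left. Input ratios went from 1.40 to 1.20 on the right and from 0.934 to 0.768 on the left.

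**Figure D4:**
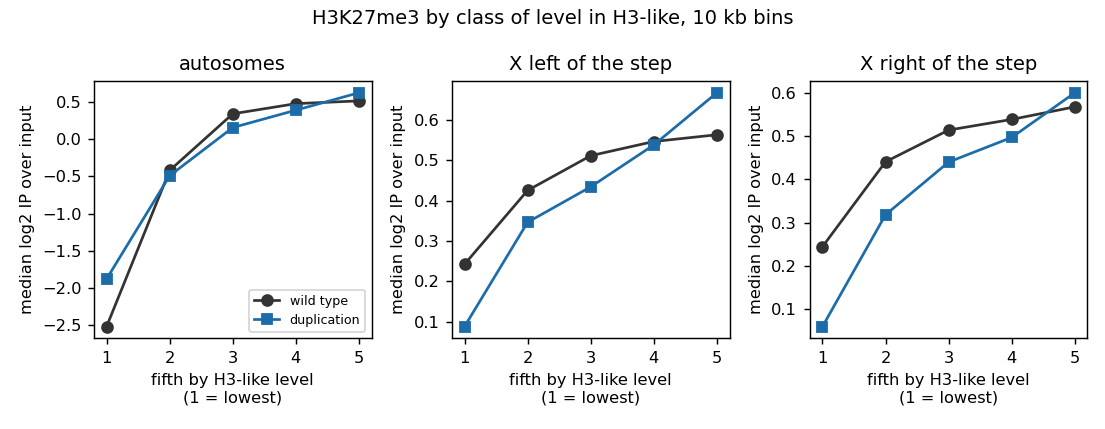
Median log2 IP over input in wild type (circles) and duplication (squares) for 5 equal classes of 10 kb bins ordered by their level in H3-like, on the autosomes and on the left and right part of X. The lowest autosomal class is higher in duplication (-1.88) than in the wild type (-2.51), whereas on X the low classes are lower in duplication; the vertical scales differ between panels.

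Other marks sorted the bins in related ways. By the wild-type level of H3K36me3, a mark of transcribed genes, the highest autosomal class had a median difference of 0.19 and 455 of its 1640 bins past the fold on the high side (27.7%), and the lowest class had 24 (1.46%). On the right part of X the class with the most H3K36me3 had the most negative difference, -0.18, and the class with the least had -0.01. H3-like minus wild type had -0.18 and -0.14 in these classes of X, and 0.11 in the highest autosomal class. By the level of OLLAS-tagged H3.3, the histone variant of open chromatin, the right part of X went from 0.01 in the lowest class to -0.15 in the highest, with input ratios of 1.22 and 1.34. The left part went from 0.05 to -0.11, and H3-like minus wild type on the right part from -0.11 to -0.18. On the autosomes the lowest and highest classes were at 0.06 and 0.007.

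A small share of bins passed from above to below 0. Levels above 0, where IP exceeds input after scaling, were found in 99.3% of bins of the right part of X in the wild type, 92.3% in duplication and 91.8% in H3-like. On the left part it was 98.3%, 93.3% and 91.0%, and on the autosomes 61.9%, 56.9% and 57.1%. On X, 0 bins went from below 0 in the wild type to above 0, in duplication and in H3-like alike. Few bins of X could do so, since nearly all were above 0 in the wild type. The other way went 6.99% of the right part and 4.96% of the left in duplication, and 7.53% and 7.28% in H3-like. On the autosomes 1.33% rose above 0 and 6.32% fell below it in duplication, against 0.122% and 4.89% in H3-like.

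Each autosome was also cut into 3 equal stretches, of which the middle one stood apart from the outer ones. The median difference between duplication and wild type was 0.17 in the middle stretch and -0.06 in the outer stretches, a contrast of 0.23, where H3-like gave 0.09. It went the same way on all 5 autosomes, from 0.16 on IV to 0.30 on I. The input ratio was 0.809 in the middle and 0.996 outside it, and the IP ratio 0.856 and 0.880. On a log2 scale the same contrast was -0.04 for the IP ratio and -0.30 for the input ratio. Of the 94 autosomal bins that were lower past the fold, 90 lay in the outer stretches, which held 5458 of the 8199 bins. The lower bins made up 1.65% of the outer bins and 0.146% of the 2741 middle bins. The higher bins showed no such contrast, with 538 outside (9.86%) and 271 in the middle (9.89%). The median level of the 94 lower bins was 0.45 in the wild type and -0.22 in duplication. Their input ratio was 1.20 and their IP ratio 0.757.

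**Figure D5:**
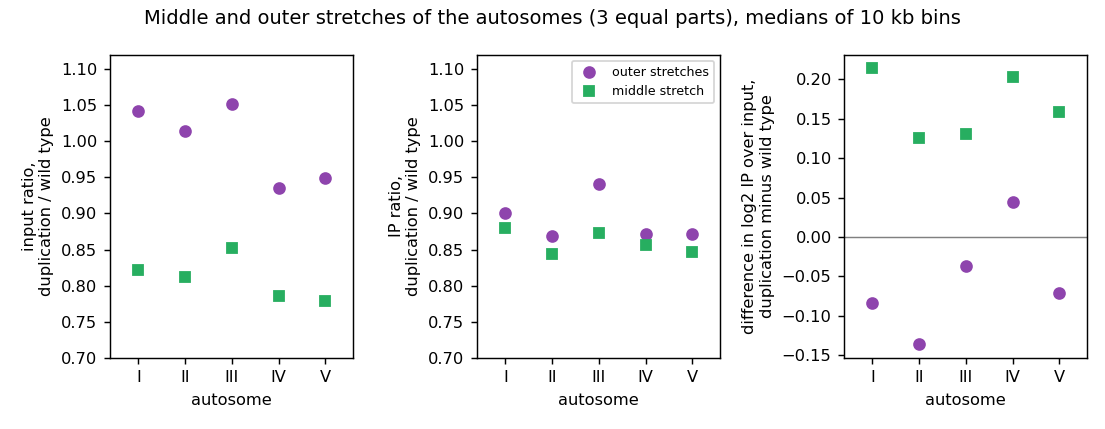
Medians over 10 kb bins of the input ratio, the IP ratio and the difference in log2 IP over input between duplication and wild type, for the outer stretches (circles) and the middle stretch (squares) of each autosome cut into 3 equal parts; the axes of the ratios run from 0.7. Input ratios of the middle stretches (0.779 to 0.852) lie below those of the outer ones (0.935 to 1.05), IP ratios differ less, and the log2 difference is higher in the middle stretch of all 5 autosomes.

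By log2 level and read ratios, the ends of chromosome I, where attached material could lie, were within or near the range of other chromosome ends. In the outer 500 kb the median difference was -0.15 at the left end of I and -0.05 at the right end, and the 8 ends of the other autosomes ranged from -0.21 to 0.08. The IP ratios were 0.915 and 0.904, against 0.854 to 0.913 elsewhere, and the input ratios 1.11 and 1.01, against 0.847 to 1.08. The left end of I was thus slightly above the others in both reads, by less than the spread among them. These data do not show to which end the X material is joined. Over the outer 1 Mb of the left end, 100 kb windows ranged from -0.55 to 0.40, the higher values being those where the wild type was lowest (-1.41 and -2.16), and over the outer 1 Mb of the right end from -0.31 to 0.81.

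Single bins with the largest differences were named by rank, 3 in each direction in each part. On the right part of X the bin from 17260001 to 17270000 was higher in duplication, with a log2 level of 2.67 against 0.62 for wild type and 0.73 for H3-like. Its IP ratio was 1.00 and its input ratio 0.23, with 8.54 input reads per 100 bp in duplication, so the difference of 2.04 came with a low input. The bin at 14900001 (0.62, IP ratio 1.54, input ratio 1.00) was the one in which IP was above the 1.22 of its surroundings, and the third, at 16930001, differed by 0.42. The bins that were lower began at 16830001 (-0.83), 17440001 (-0.63) and 16380001 (-0.62), with input ratios of 1.53 to 1.74.

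On the left part of X the highest bin began at 11780001, within 350 kb of the step. Its level was 1.73 for duplication, 0.63 for wild type and 0.56 for H3-like, with an IP ratio of 1.20 and an input ratio of 0.55. It was followed by 1920001 (0.74) and 10290001 (0.67). The bins that were lower began at 9190001 (-0.75), 3120001 (-0.65) and 2210001 (-0.62), each with an IP ratio between 0.702 and 0.750 and an input ratio between 1.15 and 1.18.

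On the autosomes the highest bins began at 8570001 of IV (1.96), 10310001 of I (1.45) and 5260001 of III (1.33). In the first and second, the input ratio was 0.20 and 0.24 and the IP ratio 0.78 and 0.69. The bin on III differed in IP (ratio 1.97, input ratio 0.76) and started from a level of -2.88 in the wild type. The lowest began at 20300001 of V (-0.87), 1450001 of II (-0.80) and 1870001 of I (-0.80). Of the 9 bins named as higher, 6 had an input ratio below 0.6, and of the 9 named as lower, all 9 had one above 1.1. Input enters the difference by which these bins were ranked, so the counts only describe the bins. The lower bins include 3 on the right part of X, where the median input ratio over all bins was 1.29. The share of all bins past these limits is not given here. The longest runs of neighbouring bins past the fold were 60 kb each on IV (11310001 to 11370000, median difference 0.73) and V (940001 to 1000000, 0.74), and 50 kb on I (1490001 to 1540000, 0.82). In these 3 runs the wild type was at -2.44 to -2.65, with IP ratios of 1.60 or more. The input ratios were lower than the IP ratios, at 0.870 on IV, 1.13 on V and 1.09 on I. Input was thus also above the wild type in the runs on V and I. Runs on the low side were shorter: 30 kb on I (820001 to 850000, -0.65), 30 kb on IV (4000001 to 4030000, -0.62) and 20 kb on I (870001 to 890000, -0.73).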

How the data were processed

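Native ChIP-seq libraries of MNase-digested chromatin were analysed from the deposited tracks. Paired-end reads were mapped by the authors to WBcel215 with Novoalign (version not given in the sources used here), binned by the maximum number of reads in each bin, scaled to equal read numbers, merged over replicates that passed quality control (their number is not stated) and smoothed. The deposited 100 bp tracks hold input-subtracted signal, scaled IP minus scaled input reads. The deposited log2 tracks hold log2 of IP over input, and were used for classes (H3K36me3 and OLLAS-tagged H3.3) and a check. Of 27 tracks, 8 were used.

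Whole IP and input reads were solved from each 100 bp value (tolerance 2e-08, scaled input up to 1500), which gave 99.98% to 99.99% of bins per track. One read was worth 1.29 (IP) and 2.12 (input) scaled reads in duplication and 0.386 and 0.364 in the wild type. In the wild type the resulting log2 ratio had a Pearson r of 0.999 with the deposited 10 kb track and lay 0.11 above it at the median. Levels were computed as log2 of scaled IP over scaled input with a pseudocount of 1, over 10 kb bins with at least 5 mean input reads per 100 bp. The step search and the fold counts were tested on simulated data. With 1 library per group no test was made. Named bins were the 3 highest and 3 lowest differences in each part and the 3 longest runs of bins past 1.5-fold in each direction. The members and lists were chosen with earlier results of these data known. No gene annotation or sequence of WBcel215 was used here, so bins carry no gene names. Python 3.11.15, numpy 2.4.6, pandas 2.3.3 and matplotlib 3.10.9 were used. Alternatives covered the bin size, pseudocount, input minimum, centring, depth, fold and control strain, and, chosen after seeing the data, IP reads alone and the flanks of the step.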

Additional observations from a re-analysis of the deposited data

How the results depend on the processing

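No paired analysis was possible because each group held 1 library, which leaves no pairs to block on. A value was counted as moved when it differed from the reported one by more than a limit, and a count when it differed by more than 1.5 times. For levels and contrasts of parts the limit was the difference between H3-like and wild type in the same measure. For the flanks of the step it was that of the whole right part of X, 0.14, although the contrast of the flanks in H3-like minus wild type was -0.0014. For input of the right part it was the SD of its 1 Mb windows, 0.052. The X minus autosome difference was first divided by that between H3-like and wild type in each setting, with a limit of 1. Of 120 recomputed values of the comparisons, 89 stayed within these limits and 31 did not. Filters on input, means in place of medians, and leaving out the chromosome ends moved none. Thinning the wild-type reads (to 26.7% of IP and 16.2% of input) also moved none. It leaves the expected mean of each bin unchanged by construction and adds only counting noise. It therefore cannot show what a shallower library would give.

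Centring on the autosomal medians took the median difference to 0.13 on the right part of X, 0.16 on the left and 0.23 on the autosomes, by construction. With H3-like as control, a change that by construction shifts each value by about the limit itself, it was 0.076 and 0.10 on the right and left part, their contrasts with the autosomes were -0.014 and 0.012, and the autosomal middle against the outer stretches gave 0.13. In 1 kb bins the autosomes were at 0.14 and the contrasts of the right and left part at -0.16 and -0.13, and in 100 bp bins at 0.20, -0.16 and -0.14. The right and left part themselves were at -0.027 and 0.003 in 1 kb bins, and at 0.040 and 0.065 in 100 bp bins. The right part thus turned in sign in 100 bp bins and the left part in both, by less than the limit. IP reads alone (chosen after seeing the data, the right part divided by 1.52 for copies) gave -0.32 on the right part, -0.27 on the left and -0.20 on the autosomes, and -0.040 for the autosomal middle.

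The X minus autosome difference between duplication and wild type (0.576 scaled reads) was -3.06 without the right part of X, 14.1, 11.8 and 9.02 as medians of 100 bp, 1 kb and 10 kb values, and 9.20 against H3-like. It was 0.13 on the log2 scale, and 0.12 for IP reads alone as X over autosomes. Input of the right part was 1.5 times that of the left, against 1.39 times relative to the autosomes. The count of 916 bins became 2800 at a log2 limit of 0.32, 76 at 2-fold, 351 with a pseudocount of 10, 1481 with centring, 122 against H3-like and 24917 in 1 kb bins. The cause of these shifts was not tested.

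Of 164 recomputed values of the named bins and runs, 5 turned in sign, all with IP reads alone relative to the autosomes, those on the right part of X also divided by 1.52 for copies: the bins at 8570001 of IV (-0.15), 10310001 of I (-0.33), and 1920001 (-0.17), 17260001 (-0.41) and 16930001 (-0.15) of X, the last pair being on the right part. Without the division for copies, IP at 17260001 was 1.15 times the wild type relative to the autosomes. A further 47 kept their sign within the 1.5-fold limit.

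The input of duplication, 45 reads per median 100 bp bin, limits single bins most. Depth aside, 1 track per strain leaves no measure of how much a second wild-type or duplication track would differ.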

Other observations

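A few 10 kb bins differed in input itself between duplication and wild type, and are named here after their values were seen. Of 9997 bins with a mean of at least 5 wild-type input reads per 100 bp, 2 had an input ratio above 2 relative to the autosomal median and 10 had one below 0.5. All ratios of duplication in this paragraph are on that relative scale. Both high bins lay side by side on V, at 18880001 and 18890001, where the input ratio was 2.02 and 2.71 and the IP ratio 2.72 and 3.55. The bins at 5740001 of III (input ratio 0.18, IP ratio 0.17) and 4340001 of IV (0.34 and 0.35) were low in both reads. The other 8 low bins were low in input, with IP ratios between 0.727 and 1.15. At both high bins and the bins low in both reads the input of H3-like was 0.865 to 0.980 times that of the wild type. Their cause was not tested.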
